A study of Saccharomyces cerevisiae with 2 samples.

Results

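The genes described here encode the proteins of the cytosolic ribosome of budding yeast (Saccharomyces cerevisiae). A gene was taken as a member when the platform annotation gave its probe set a symbol made of RPL or RPS, a number and an optional A or B, or the symbol RPP0, RPP1A, RPP1B, RPP2A or RPP2B. By that rule 80 genes had a probe set of their own, out of 5656 genes measured in this way, and they were read by 105 probe sets. Another 59 probe sets carried several symbols that were all ribosomal protein genes, and these are given as shared. No measured value entered the rule.

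Both samples were the same strain and condition, a mutant in which lysines 4, 36 and 79 of histone H3, the targets of the methyltransferases Set1, Set2 and Dot1, were changed to arginine. Galactose medium allowed a wild-type H3 to be made as well, and the cultures were measured 18 hours after a move to glucose medium had shut that gene off, at an OD600 between 0.5 and 0.7. RNA from replicate cultures 1 and 2 was hybridised to 1 Affymetrix array each. The series asks which genes depend on the mutant histone, but wild-type cultures and other times were not analysed here, so the values below are levels in the mutant and differences between its 2 arrays, with no test. The signals are MAS5 intensities in arbitrary units, with a median over all probe sets of 25.5 on replicate 1 and 25.7 on replicate 2.

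A ribosome has a large subunit, which forms peptide bonds, and a small subunit, which decodes messenger RNA. Each is built from ribosomal RNA and a set of mostly small, basic proteins. In yeast most of these proteins are encoded by a pair of genes left from an ancient whole-genome duplication, named A and B, and many pairs encode the same or nearly the same protein. Ribosomal protein genes are among the most heavily transcribed in growing cells, under the DNA-binding protein Rap1 and the factors Fhl1 and Ifh1, and they are turned up by growth signals through TORC1 and protein kinase A.

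The reference gene table lists 137 such genes for 78 proteins, 46 of the large subunit (stalk proteins included) and 32 of the small subunit. Of these proteins 59 have a gene pair and 19 have a single gene. The array told both copies apart for 31 pairs, and 10 of the 31 also had shared probe sets. For 27 pairs the array gave shared probe sets alone, so 54 genes had no value of their own. The 62 genes of the 31 pairs and 18 single genes make up the 80.

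How far a probe set belongs to its gene is shown in part by the letter in its name. In Affymetrix naming a plain name stands for probes chosen as specific to a transcript, f for probes of a sequence family, i for an incomplete set of probes, s for probes that match several transcripts and g for a group of transcripts in common. Among the 164 probe sets, 56 were plain, 40 were i, 35 were f, 31 were s and 2 were g. All 31 s sets and both g sets were shared in the annotation, whereas 28 of the 35 f sets were assigned to a single gene. A value from an f set may therefore hold signal from the other copy, and the share of each copy in it was not tested. Where a gene had several probe sets of its own, the brightest over both arrays is used unless stated.

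Every one of the 80 genes lay above the median signal of all genes, and 75 lay at or above the 90th percentile. Of the 100 brightest genes of the array, 39 were ribosomal protein genes, and of the 10 brightest 3 were. The middle value of the 80 was 658 on replicate 1 and 634 on replicate 2, and the interquartile range of the mean signal ran from 463 to 809. Probe sets differ in how strongly they bind, so these ranks describe brightness on this array and not the number of transcripts per cell.

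**Figure D1:**
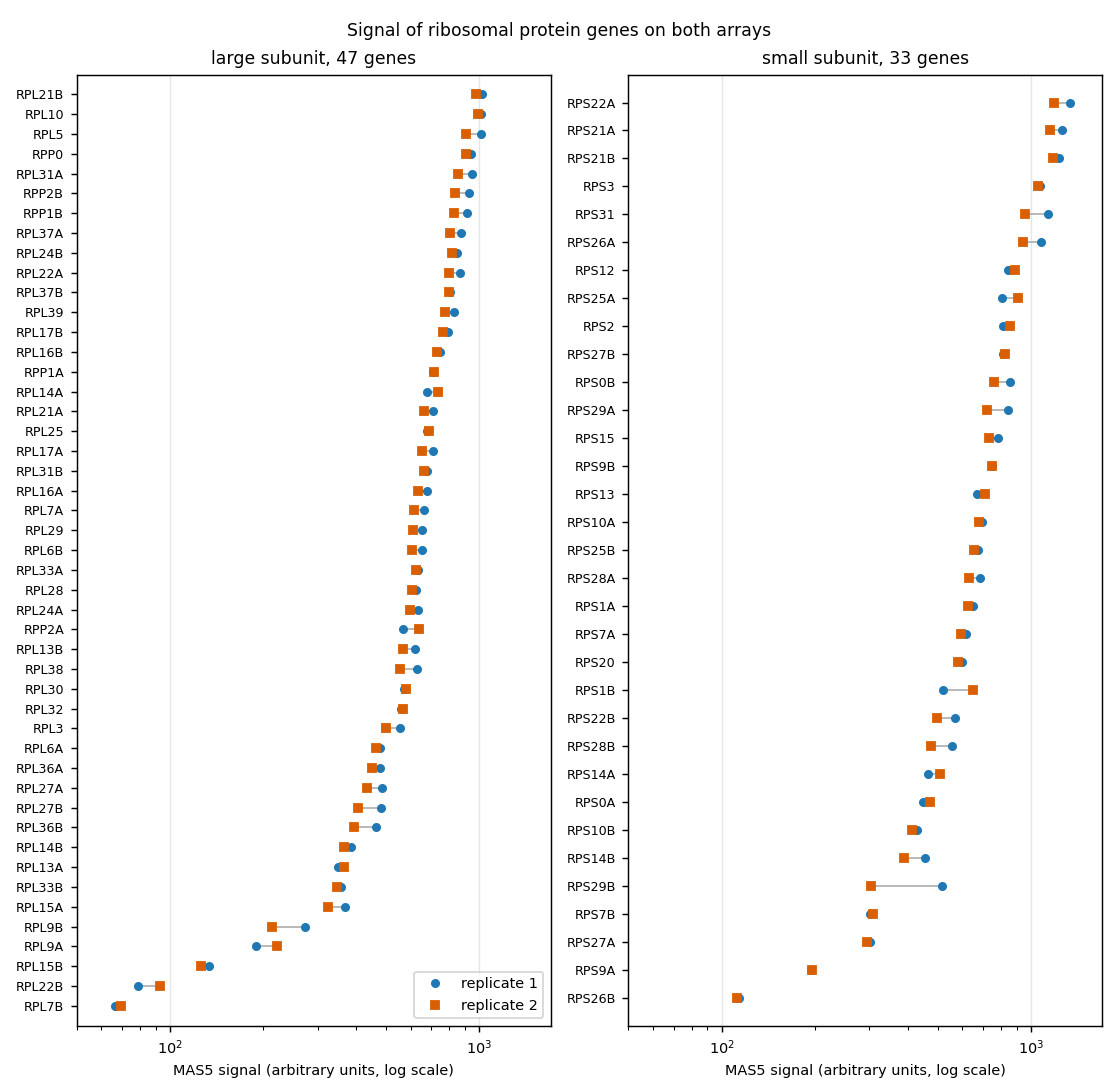
MAS5 signal (arbitrary units, log scale) of the 80 ribosomal protein genes with a probe set of their own, 47 of the large and 33 of the small subunit, with a circle for replicate 1 and a square for replicate 2. RPS22A is the brightest at 1339.9 and 1189, RPL7B the dimmest at 66.4 and 69.4, and RPS29B has the widest gap between the arrays, 516 against 305.

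The stalk of the large subunit recruits and activates the GTPases that drive translation. RPP0, which anchors the stalk, gave 942 on replicate 1 and 902 on replicate 2. The acidic proteins that bind to it as P1 and P2 pairs gave 706 and 711 for RPP1A, 915 and 826 for RPP1B, 567 and 637 for RPP2A, and 922 and 833 for RPP2B. All 5 genes were read by plain probe sets. The B copy was the brighter one in both stalk pairs and on both arrays.

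Single-copy genes of the large subunit, RPP0 among them, all had mean signals of at least 526. RPL10, whose protein joins late in the cytoplasm and is needed for the subunits to meet, gave 1009 on replicate 1 and 988 on replicate 2. RPL5, which carries the 5S ribosomal RNA into the subunit, gave 1012 and 909. RPL39, a very small protein of the exit tunnel, gave 826 and 772, and RPL25, which lies beside the tunnel exit where nascent-chain factors dock, gave 679 and 686. RPL28, the site of mutations that give resistance to cycloheximide, gave 623 and 608. RPL3, next to the peptidyl transferase centre, was the dimmest of this class at 553 and 499.5. RPL30, whose protein blocks splicing of its own transcript, gave 571 and 581, RPL32 gave 558 and 565, RPL29 gave 651 and 612, and RPL38 gave 629 and 554. The arrays differed most for RPL38, RPL5 and RPL3, which were lower on replicate 2 by 0.18, 0.15 and 0.15 on the log2 scale.

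Small-subunit single genes ranged similarly. RPS3, at the entry of the messenger RNA channel, gave 1065 and 1051, a close match between the arrays. RPS31, made as a fusion with ubiquitin, gave 1134 and 953 and so fell by 0.25 on the log2 scale from replicate 1 to replicate 2, the largest difference among the 18 single genes. RPS2, a neighbour of RPS3 that affects decoding accuracy, gave 814 and 857, and RPS12, a protein of the beak, gave 844 and 887. RPS13 gave 669 and 709, RPS15, needed for export of the small subunit from the nucleus, gave 781 and 731, and RPS20, of the subunit head, gave 596 and 583. RPS2, RPS12 and RPS13 were the higher on replicate 2, and the others were the higher on replicate 1.

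Values for the 27 pairs without probe sets of their own may hold signal from both copies, in a proportion that was not tested. They came from 47 probe sets, with a median mean signal of 660. RPL2A and RPL2B, for a protein close to the peptidyl transferase centre, shared the brightest, at 1208 on replicate 1 and 1200.1 on replicate 2. RPL11A and RPL11B, whose protein binds the 5S ribosomal RNA with RPL5, came next with 1182 and 1143 in the brightest of 3 sets. RPL34, with 1045 and 1037, and RPS23, with 1051 and 1028, followed, each in the brightest of 3 sets. RPL19 had 1047 and 997, RPL26 had 1034 and 977, and RPS18 had 1017 and 967, each as a pair. RPL40A and RPL40B, the ubiquitin fusion genes of the large subunit, had 3 shared probe sets from 420 to 654 in mean signal, all of them higher on replicate 2, by 0.08 to 0.11 on the log2 scale. RPS6A and RPS6B, for the small-subunit protein that is phosphorylated under TORC1 control, had 555 and 538.

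The dimmest shared value belonged to RPL41A and RPL41B. These genes encode the smallest ribosomal protein, which lies between the subunits. Their shared probe set gave 56.1 on replicate 1 and 41.5 on replicate 2. This was far below every other family of the 27 by its brightest probe set, the next being RPL35A and RPL35B at 473 and 472. The RPL41 genes are very short, and the effect of that on the probe set was not tested. Of the 59 shared probe sets, 45 were lower and 14 higher on replicate 2, where 43.6% of all genes with an own set and 56.3% of those with a mean signal of 200 or more were lower. After loess the split was 31 lower and 28 higher, with quantile normalization 28 and 29, and after local centring 44 and 14. In the same order 45.8%, 43.2% and 61.4% of the genes with a mean signal of 200 or more were lower.

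Shared probe sets did not agree among themselves in level. The 4 for RPS16A and RPS16B had mean signals from 88.1 to 508, a 6.00-fold range (here and for other sets a ratio of geometric means over the arrays), and the dimmest of them, an i set, gave 112 on replicate 1 and 64.1 on replicate 2. That drop of 0.81 on the log2 scale stands beside differences of 0.01, 0.05 and 0.17 in size in the other 3. RPL4A and RPL4B, for a protein that lines the exit tunnel, had 3 probe sets over a 5.27-fold range, from 153 to 808. RPS23A and RPS23B, for a protein of the decoding centre, spanned 2.24-fold. By contrast RPS30A and RPS30B had 2 shared sets at 903 and 965, and RPL8A and RPL8B had 3 within 1.21-fold.

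In the 10 families with both shared and own probe sets, the brightest shared set exceeded every own set in 6. For RPL15A and RPL15B the own sets had mean signals of 346 and 130 and the shared set 484. For RPL9A and RPL9B they were 206 and 243 against 372, and for RPL36A and RPL36B 463 and 430 against 680. In RPS21, RPS1 and RPS9 the shared set was dimmer than every own set, most of all for RPS9, at 74.5 against 195 and 747. In RPL17 the shared set, at 721, lay among the own sets, which reached 778.

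**Figure D2:**
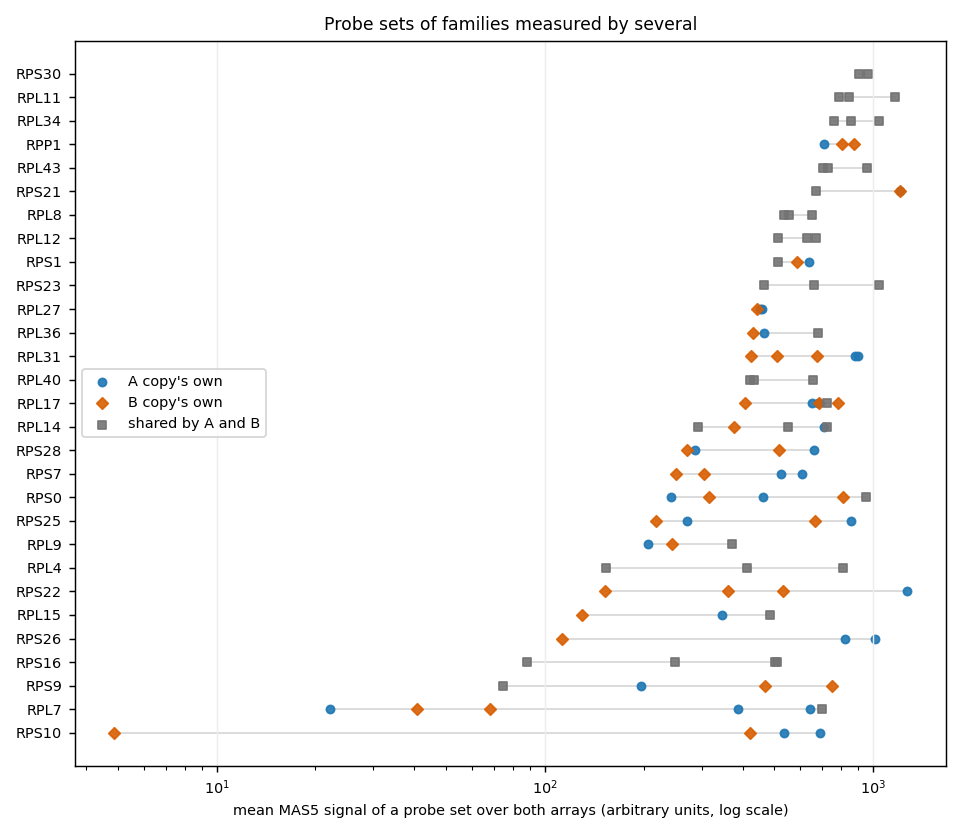
Mean MAS5 signal over both arrays (arbitrary units, log scale) of 105 probe sets in 29 families that have several probe sets for a gene or for the pair, with circles for the A copy, diamonds for the B copy and squares for sets shared by both. The sets of a family spread over less than 2-fold in RPL8 and RPS30 and most widely in RPS10, where a set assigned to RPS10B lies near 5.

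Of the 31 pairs told apart, the A copy was brighter on both arrays in 17 and the B copy in 11, and the order turned between the arrays in 3. The size of the log2 A to B signal ratio had a median of 0.54, a factor of 1.46. Because the copies are read by different probes, the ratio of signals is not the ratio of transcripts. The count also turned with the kind of probe set: among the 14 pairs with plain sets for both copies, A was brighter in 5 and B in 9, whereas among the 17 pairs with a marked set A was brighter in 12 and B in 2.

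In 7 pairs the brighter copy led by more than 2-fold on both arrays. RPL22A, for a protein of the large subunit that yeast can grow without, gave 863 on replicate 1 and 799 on replicate 2, and RPL22B gave 78.7 and 92.7. The log2 A to B ratio was 3.28 ± 0.25 (SD, n = 2), the widest of the 31, and both sets were plain. RPL22 protein is known to hold back splicing of the RPL22B transcript.

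RPL7A gave 663 and 615 and RPL7B gave 66.4 and 69.4, a log2 ratio of 3.23 ± 0.12 (SD, n = 2) that came from an i set and an f set. RPS26A, for a protein at the exit of the messenger RNA channel, gave 1080.1 and 944, and RPS26B gave 114 and 112. Their log2 ratio was 3.16 ± 0.13 (SD, n = 2), with an i set against a plain set. A second set for RPS26A, an f set, gave 799 and 839, which also put RPS26A well above RPS26B.

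RPS9 and RPS27 ran the other way. RPS9A gave 195 and 196 and RPS9B gave 748 and 747, both from f sets, and the log2 A to B ratio of -1.94 was nearly the same on the arrays, with a change of 0.01. RPS27A, with a plain set, gave 301 and 295, and RPS27B gave 813 and 826. The zinc-binding proteins of this pair differ little between the copies. The ratio was -1.46 ± 0.04 (SD, n = 2).

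RPL15 and RPS22 completed the group beyond 2-fold. RPL15A gave 368 and 324 and RPL15B gave 133 and 126, from plain sets, for a log2 ratio of 1.41 ± 0.08 (SD, n = 2). RPS22A was the brightest of all 80 genes at 1339.9 and 1189, and RPS22B gave 566 and 496. Sets of RPS22B itself ranged down to 155 and 149.8 for the plain one, so the log2 ratio, 1.25 with the brightest set, was as high as 3.05 with the dimmest.

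Next in order came RPS7, RPS29, RPL14, RPL33 and RPS0, with signal ratios from 1.75-fold to 1.98-fold. RPS7A gave 618 and 593 and RPS7B gave 302 and 309, with plain sets. RPL14A gave 679 and 738 against 386 and 366 for RPL14B, and RPL33A gave 633 and 623 against 357 and 346 for RPL33B, all from f sets. In the RPS0 pair the B copy led, with 852 and 759.8 for RPS0B and 448 and 472 for RPS0A. Each of these pairs kept its order on both arrays.

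At the other end, RPS21A and RPS21B were nearly equal, with 1257 and 1153 for A and 1232 and 1173 for B, from i sets. RPL27A gave 483 and 434 and RPL27B gave 482 and 405. RPL37A gave 875 and 801 and RPL37B gave 803 and 800.4, and these are plain sets. RPL36A gave 477 and 450.1 and RPL36B gave 465 and 394, from i sets. RPL16A, at 678 and 635, and RPL16B, at 746 and 731, also lay close together. With RPL17, these were the 6 pairs whose copies were within 1.2-fold of each other on both arrays.

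**Figure D3:**
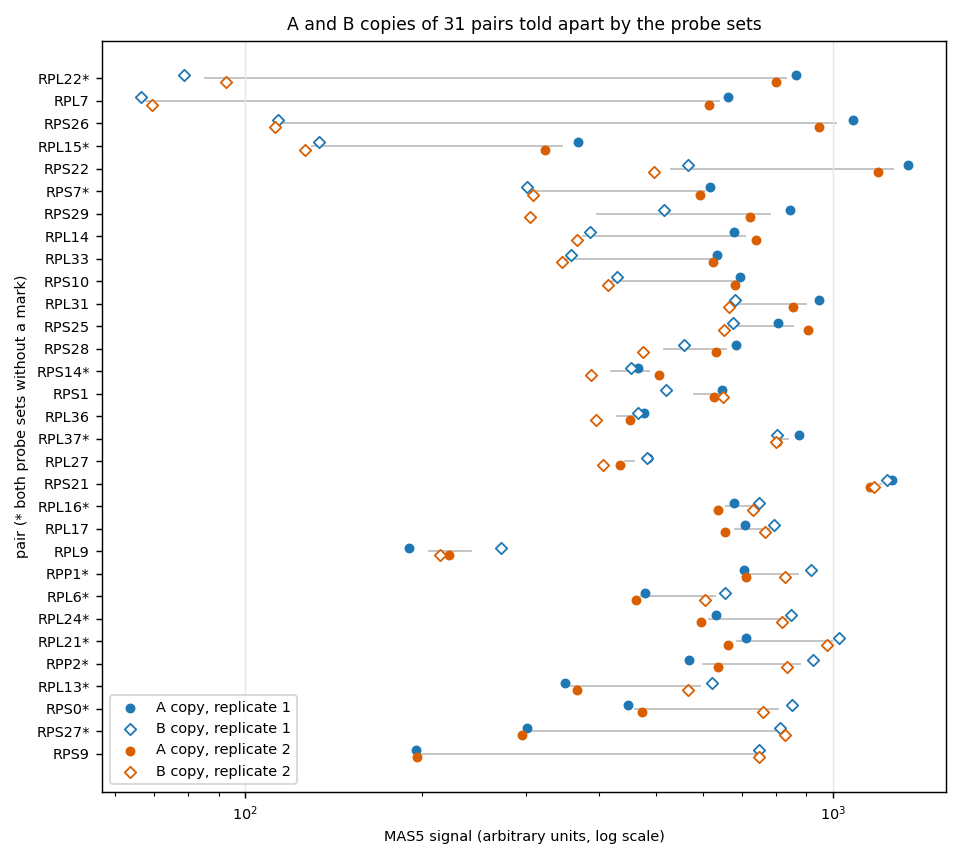
MAS5 signal (arbitrary units, log scale) of the A copy (filled circle) and the B copy (open diamond) on replicate 1 (blue) and replicate 2 (orange) for the 31 pairs, ordered by the mean log2 A to B signal ratio, with an asterisk where both probe sets are plain. RPL22, RPL7 and RPS26 lie at the top with A far above B, and RPS9 and RPS27 at the bottom with B above A.

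For genes with several probe sets of their own, the A to B order could depend on the set. There were 21 such genes, and the brightest and dimmest sets were over 2-fold apart in 7. RPS10B had an f set at 429 and 413 and another f set at 5.61 and 4.17, a range of 87.1-fold within a single gene. RPL7A ranged from 663 and 615 in an i set to 24.9 and 19.5 in its plain set, a range of 29.0-fold. RPS22B, RPS25A, RPS25B, RPS0B and RPS28A ranged from 2.29-fold to 3.47-fold.

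Of the 13 pairs that allow several combinations of own sets, the order of A and B changed with the combination in 5, namely RPL7, RPL17, RPS0, RPS25 and RPS28. For RPL7 the log2 ratio ran from -1.62 to 3.99. For RPS25, a pair whose protein is needed by some viral initiation elements, it ran from -1.30 to 1.98, and for RPS28 from -0.84 to 1.28. RPS0 ran from -1.74 to 0.54 and RPL17 from -0.26 to 0.75. With the brightest sets RPL7A led RPL7B by 9.41-fold. The i set of RPL7A (663 and 615) and its f set (417 and 359) lay above both RPL7B sets (66.4 and 69.4, 47.2 and 34.4). Its plain set, at 24.9 and 19.5, lay below them. The order thus depended on whether the plain set or another set of RPL7A was read.

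The same probe sets are read on both arrays, so a fixed difference in affinity cancels in the change of the A to B ratio, whereas signal from the other copy or a nonlinear response does not. In 6 of the 31 pairs (19.4%) the ratio differed by over 1.2-fold. A ratio holds the variation of 2 genes, so this share cannot be set beside the shares given for single genes. The share over pairs of other genes is not given here, so 19.4% is not shown to be high. All 6 had a single own set for each copy, so no other own set could be compared, and 0 of the 13 pairs with several combinations passed 1.2-fold with their brightest sets. RPL9 and RPS1 also had a shared set each, lower on replicate 2 by 0.08 and 0.15 on the log2 scale. For RPS1 that drop lay outside the own sets, where RPS1A was lower by 0.05 and RPS1B higher by 0.32. RPL9 changed most, by 0.57 on the log2 scale: RPL9A gave 190 on replicate 1 and 222 on replicate 2 while RPL9B gave 273 and 214, so that B led on replicate 1 and A on replicate 2. RPS29 changed by 0.53, with 845 and 720.1 for RPS29A and 516 and 305 for RPS29B, whose proteins bind zinc in the head of the small subunit. RPS1 changed by -0.37, since RPS1A gave 647 and 627 and RPS1B gave 519 and 649, and its order turned as well.

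RPS14 changed by 0.35. RPS14A gave 465 and 506 and RPS14B, whose splicing is known to be blocked by the RPS14 protein, gave 453 and 387, from plain sets, so the copies were level on replicate 1 and apart on replicate 2. RPL22 changed by -0.35 and RPP2 by 0.31. The RPL22 change was between 1.13-fold and 1.27-fold over 5 scalings of the arrays, below 1.2-fold after local centring, and the other 5 changes stayed above 1.2-fold in all of them. In the RPS21 pair the order turned too, with log2 ratios of 0.03 and -0.03. Each culture was read on its own array, so culture and array cannot be told apart in these changes.

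**Figure D4:**
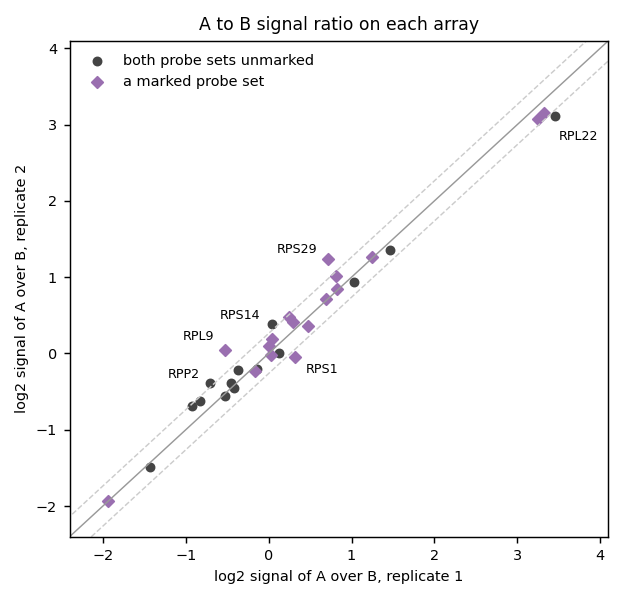
Log2 A to B signal ratio of the 31 pairs on replicate 1 (horizontal) and replicate 2 (vertical), with circles where both probe sets are plain and diamonds where either is marked, the solid line at equal ratios and dashed lines 1.2-fold to either side. RPL9, RPS29, RPS1, RPS14, RPL22 and RPP2 lie outside the dashed lines.

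Between the arrays, 60 of the 80 genes were lower on replicate 2, where 43.6% of all 5656 genes were. Signals from bright genes leaned the same way: 56.3% of the 583 genes whose mean signal reached 200 were lower on replicate 2. The split moved with the scaling. Both scalings that follow signal level narrowed it, to 44 lower and 35 higher with quantile normalization and to 45 lower and 35 higher after loess, where 45.8% of the genes with a signal of at least 200 were lower. With quantile normalization 43.2% of the genes with a signal of at least 200 were lower, and 45.7% of all genes. Median centring gave 62 lower and 18 higher, with 59.7% of the genes with a signal of at least 200 and 46.2% of all genes lower. Local centring, which subtracts the running median over neighbouring probe set numbers, gave 62 lower and 17 higher, with 61.4% of the genes with a signal of at least 200 lower. The median log2 difference of the 80 was -0.06, against 0.03 for all genes and -0.01 for the 508 other genes with a signal of at least 200. Under the 5 scalings 41 of the 80 were lower each time, 14 never, and 25 depended on the scaling. The same counts over other genes are not given here, so 41 of 80 is not shown to be more than their share.

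The differences were small. Of the 80 genes 3 differed by over 1.2-fold between the arrays, 3.75%, where 15.4% of all genes and 4.12% of the genes with a signal of at least 200 did. After local centring RPL27B, RPL36B and RPS26A joined them, which made 6 genes, or 7.5%, against 5.49% of the genes with a signal of at least 200. The 3 as deposited were RPS29B, RPL9B and RPS1B, each a B copy with an f or i probe set. RPS29B fell by 0.76 on the log2 scale from replicate 1 to replicate 2, RPL9B fell by 0.35 and RPS1B was higher by 0.32. Of the 50 genes read by plain sets 0 passed 1.2-fold, and of the 30 read by marked sets 3 did.

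After these came RPS31, RPL27B, RPL36B, RPS29A, RPS28B and RPS14B, lower on replicate 2 by 0.23 to 0.25 on the log2 scale. In the upward direction RPL22B (0.24), RPL9A (0.23), RPS25A (0.17), RPP2A (0.17), RPS14A (0.12), RPL14A (0.12) and RPS13 (0.08) followed RPS1B. Each gene in these lists kept its direction under the 5 scalings. Among the 21 genes with several own sets, the sets disagreed in direction in 8, RPS25A among them, whose f set was higher on replicate 2 by 0.17 and whose i set was lower by 0.25.

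**Figure D5:**
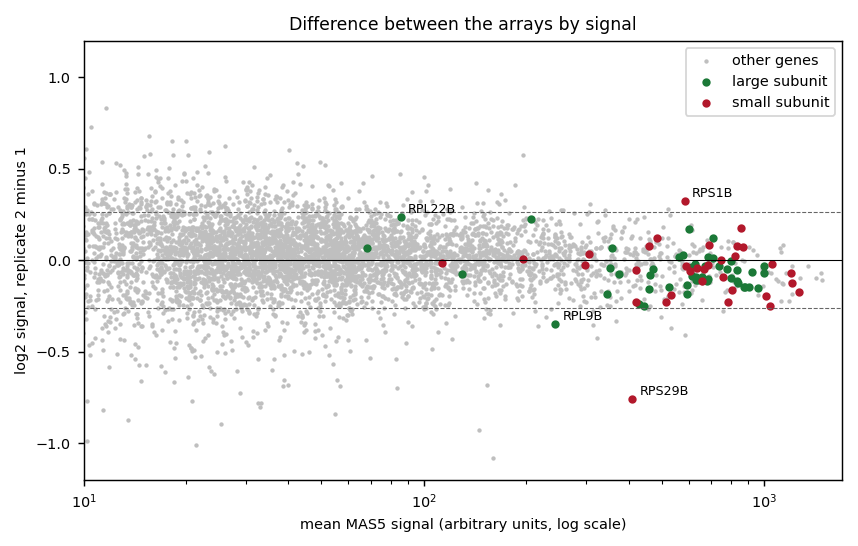
Log2 signal of replicate 2 minus replicate 1 against mean MAS5 signal (arbitrary units, log scale) for ribosomal protein genes of the large (green) and small (red) subunit and all other genes (grey), with dashed lines at 1.2-fold and 600 genes outside the plotted range. Ribosomal protein genes lie at the bright end, mostly just below 0, and RPS29B, RPL9B and RPS1B lie outside the dashed lines.

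Large and small subunit genes looked alike in brightness. The 47 large-subunit genes had a median mean signal of 630, with 651 on replicate 1 and 615 on replicate 2, and the 33 small-subunit genes had 665, with 676 and 653. The lowest and highest were 67.9 (RPL7B) and 998 (RPL21B) for the large subunit and 113 (RPS26B) and 1264 (RPS22A) for the small. The 6 brightest of the 80 were all of the small subunit, namely RPS22A, RPS21A, RPS21B, RPS3, RPS31 and RPS26A, and RPL21B and RPL10 came next.

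Both subunits leaned downward on replicate 2, with 37 of 47 large-subunit and 23 of 33 small-subunit genes lower and median log2 differences of -0.08 and -0.05. After loess the large subunit had 28 lower and 19 higher (median -0.04) and the small subunit 17 lower and 16 higher (median 0.00). After local centring 37 of 47 and 25 of 33 were lower, with medians of -0.09 and -0.06. Among genes with a signal of at least 200, 56.3% were lower as deposited, 45.8% after loess and 61.4% after local centring. Of all genes 43.6%, 47.9% and 49.8% were lower in the same order. The small subunit after loess, with 51.5% lower, was near these shares. The difference between the subunits was not tested. A copies and B copies of the 31 pairs had medians of -0.08 and -0.07, with 22 and 26 genes lower.

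The factors that control ribosomal protein genes had a median mean signal of 46.9, against 638 for the 80 genes, each on its own probe set and so not on the same scale. RAP1 gave 23.9 on replicate 1 and 24.8 on replicate 2, FHL1 gave 9.54 and 11.5, and IFH1, the coactivator that binds Fhl1, gave 44.5 and 49.3. SFP1, which moves to the nucleus under growth signals, gave 23.1 and 20.0, and HMO1, a high-mobility-group protein found at many of these promoters, was the brightest regulator at 167 and 151. HMO1 was thus above the dimmest ribosomal protein genes, RPL15B, RPS26B, RPL22B and RPL7B. Of 22 regulators listed, 21 were measured, 13 higher and 8 lower on replicate 2. That is 38.1% lower, near the 43.6% of all genes. FHL1 alone passed 1.2-fold, 1 of 21 where 15.4% of all genes did, with a difference of 0.26 that was under 1.2-fold in each of the other 4 scalings (0.21 to 0.25). REB1, a DNA-binding factor of many promoters, gave 9.12 and 7.66 and passed in those 4 instead, with -0.26 to -0.30. FHL1 and REB1 both lay under the median of all probe sets on both arrays. After local centring the split of the 21 was 10 higher and 11 lower, where 49.8% of all genes were lower.

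A list of chaperones, modifiers and transport factors of ribosomal proteins and subunits, not all of them dedicated to these, leaned toward replicate 2. Of 20 genes 17 were higher there and 3 lower, with a median log2 difference of 0.17, where 43.6% of all genes were lower. The other scalings gave 16 or 17 higher and medians of 0.16 to 0.17, with 45.7% to 49.8% of all genes lower. LTV1, needed for export of the small subunit, gave 26.2 and 37.2, SYO1, which carries RPL5 and RPL11 to the nucleus, gave 16.6 and 22.4, TSR2, the RPS26 chaperone, gave 12.2 and 15.1, and RKM2, a methyltransferase that modifies RPL12, gave 12.5 and 15.4. These 4 passed 1.2-fold, 20% of the list against 15.4% of all genes. SYO1, TSR2 and RKM2 lay under the median of all probe sets on both arrays. The share among genes of like signal is not given here. RRB1, which binds RPL3, gave 64.0 and 75.6, and SQT1, which binds RPL10, gave 93.4 and 94.9.

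Proteins that sit on finished ribosomes were as bright as the ribosomal proteins in several cases. ASC1, a small-subunit protein outside the naming rule, gave 942 and 897, STM1, which clamps idle ribosomes, gave 690 and 683, and the nascent-chain complex genes EGD1 and EGD2 gave 586 and 547, and 621 and 525. ZUO1, of the ribosome-associated chaperone complex, gave 389 and 455. Of the 12 measured genes of 14 listed, 7 were lower on replicate 2 (6 after quantile normalization, loess or local centring) and 0 passed 1.2-fold. Among the 66 mitochondrial ribosomal protein genes the median signal was 44.2, and 26 were lower on replicate 2, or 35 after local centring. The 27 translation factor genes had a median of 146, with 13 lower, or 12 after loess. Of all genes 43.6% were lower as deposited, 47.9% after loess and 49.8% after local centring, and 15.4% passed 1.2-fold as deposited. Among genes with a signal of at least 200, 56.3% were lower and 4.12% passed as deposited.

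In gene order along the chromosomes, 18 of the 137 genes lie next to another ribosomal protein gene, in 10 neighbouring pairs. RPS14B, RPS22A and RPL39 stand in a row, and all 3 were lower on replicate 2, by 0.23, 0.17 and 0.10 on the log2 scale. Of the 80 genes 75% were lower there, as were 43.6% of all genes, and an effect of position was not tested. RPS16B, RPL13A and RPP1A also stand in a row, and RPL13A and RPP1A were higher by 0.07 and 0.01, although the direction of RPP1A turned with median centring. RPS16 lies beside RPL13 at both of its places, with RPL13B and RPS16A at the other. RPS15 and RPP2A are neighbours that differed in direction, with -0.09 and 0.17, as did RPL24A and RPL30, with -0.09 and 0.03, although RPL30 was lower too after local centring. Of the 59 gene pairs 54 have their copies on different chromosomes.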

How the data were processed

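Total RNA of 2 cultures was measured on Affymetrix arrays, 1 each. The authors deposited a MAS5 intensity for each probe set on a linear scale, per the submitters' processing notes. Which MAS5 version and target value they used is not stated in the sources at hand. MAS5 subtracts mismatch signal and scales each array. Differences and ratios were taken as log2 values of the deposited signals, with no further scaling. In the platform annotation 6504 probe sets had 1 gene symbol, 328 several and 2503 none. Per gene the brightest probe set above 0 on both arrays was used. All 80 member symbols matched the RefSeq table of assembly R64, which was used for names and neighbours. Alternatives were median centring, quantile normalization, loess (span 0.4), local centring (running median over 101 neighbouring probe set numbers), plain probe sets, mean of probe sets, an offset of 16 and a signal of at least 20. With 1 group of 2 arrays no test was made, and precision is limited by their number. The calculations, in Python 3.11.15 with statsmodels 0.14.6, were checked on simulated data. Members, lists and thresholds were chosen with earlier results of these data known. Named genes are the extremes in signal, difference and A to B ratio, the single-copy and stalk genes, genes with several probe sets, shared sets and the listed regulators, chaperones and ribosome-bound proteins. Promoter motifs had been planned and were not analysed here, because no sequence table was used. The remaining 3 genes of the reference list are not reported here.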

Additional observations from a re-analysis of the deposited data

How the results depend on the processing

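Local centring and the inclusion of shared probe sets were added after the data were seen. The median log2 difference of the ribosomal protein genes, -0.061, was -0.012 with quantile normalization and -0.0156 after loess, and that of the small subunit, -0.0452, was 0.0 and -0.0003. The median signal, 638.3, was 596.2 when each gene's probe sets were averaged and 633.7 to 658.4 with either array alone. With plain probe sets, which cover 52 genes and 15 pairs and so lower every count, 38 genes were lower on replicate 2, 1 was over 1.2-fold apart, 6 pairs had the brighter A copy and 3 pairs changed by over 1.2-fold. Local centring put 6 genes over 1.2-fold, where 3 were as deposited, and the cause was not tested. The median size of the A to B ratio, 0.5428, was 0.4742 to 0.5247 with either array alone, and pairs with the brighter A copy were 18 and 19. Differences between the arrays have no value with an array left out. By label, 12 recomputed values moved and 66 did not, and the rule for the labels is not given here. The 66 include values that shrank. Genes lower on replicate 2, 60 as deposited, were 44 with quantile normalization and 45 after loess. The large-subunit median, -0.0779 as deposited, was -0.0321 and -0.0395 with the same scalings. No paired analysis was possible because a single group was measured. The promoter motif results were not run.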
